A study of Mus musculus with 8 samples.

Results

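A set of 7 genes outside the usual lists of helper T cell genes, namely Akr1c18, Lrrk2, Erg, Gpr33, Spx, Gpm6b and Srgap3, was described across genotype and CD45RB subset in mouse CD4+ T cells. They were chosen by their subset difference on these same arrays, as genes strongly higher in CD45RBlow than in CD45RBhigh cells. The subset difference of these 7 genes is therefore a description and carries no test. They are 7 of 22180 genes with a named probe set, and all 7 were among the 13508 genes that passed a filter on low values. CD45RB is an isoform of the leukocyte surface phosphatase CD45. Naive CD4+ T cells carry much of it and antigen-experienced cells carry little.

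There were 4 groups of 2 arrays each: CCR2-/- CD45RBlow, wild-type CD45RBlow, CCR2-/- CD45RBhigh and wild-type CD45RBhigh. CCR2 is a chemokine receptor of monocytes and of some memory T cells. In all groups the cells were CD4+CD25- T cells sorted by flow cytometry from spleens of C57BL/6 mice aged 6 to 8 weeks, and all were activated on plates carrying antibodies to CD3 and CD28, so no group shows unstimulated cells. The sample protocols give 48 h of activation and the series text gives 2 h, and the values cannot be placed at one of these times. Whether a sample pooled several mice, and whether the 2 arrays of a group came from separate mice, is not given in the sources used here, and the p-values therefore cover the spread among these samples alone. The sex-linked transcripts described further on differed between the 2 arrays of every group, so these arrays were not repeat measurements of 1 RNA sample. The sort on low CD25 removes cells with much IL-2 receptor, and which part of Ccr2 is deleted is not given here.

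Akr1c18 encodes a hydroxysteroid dehydrogenase of the aldo-keto reductase family that converts progesterone to a less active steroid, and is best known from the mouse ovary at the end of pregnancy. Lrrk2 encodes a large kinase with a GTPase domain that phosphorylates Rab GTPases of vesicle traffic, and its human counterpart is mutated in familial Parkinson's disease. Erg encodes an ETS-family transcription factor of endothelial cells and haematopoietic stem cells. Gpr33 encodes an orphan receptor that resembles the receptors for chemoattractants, and Spx encodes spexin, a secreted peptide that acts on galanin receptors. Gpm6b encodes a membrane glycoprotein of the proteolipid family, and Srgap3 encodes a GTPase-activating protein for Rac that acts downstream of SLIT and ROBO, both known mainly from neurons.

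The 7 genes lie at separate places in the mouse genome (RefSeq annotation of GRCm38.p6). Akr1c18 is at chr13:4132615-4150646 on the minus strand, Lrrk2 at chr15:91672791-91816124 on the plus strand and Erg at chr16:95359169-95586600 on the minus strand. Gpr33 is at chr12:52023003-52028063 on the minus strand. Spx at chr6:142413388-142419740 on the plus strand and Srgap3 at chr6:112717971-112947505 on the minus strand share a chromosome and are far apart. Gpm6b, at chrX:166238943-166389033 on the plus strand, is the X-linked member.

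The 250 bases before the annotated start were searched for 8 short motifs on both strands, over 10 start sites of the 7 genes and over 32851 windows of the same length in all. The 3 windows printed here are those of the gene with the largest subset difference, of the gene with the tightest levels and of the X-linked gene, each wholly outside the transcript and read from RefSeq. Capitals mark motif matches, and each sequence runs 5′ to 3′ on the strand of its gene.
Akr1c18, chr13:4150647-4150896, minus strand: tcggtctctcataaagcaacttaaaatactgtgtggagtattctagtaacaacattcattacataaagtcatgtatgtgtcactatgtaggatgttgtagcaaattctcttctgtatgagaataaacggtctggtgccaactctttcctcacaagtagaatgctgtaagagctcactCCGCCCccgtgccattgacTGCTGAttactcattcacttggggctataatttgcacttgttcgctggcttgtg
Spx, chr6:142413138-142413387, plus strand: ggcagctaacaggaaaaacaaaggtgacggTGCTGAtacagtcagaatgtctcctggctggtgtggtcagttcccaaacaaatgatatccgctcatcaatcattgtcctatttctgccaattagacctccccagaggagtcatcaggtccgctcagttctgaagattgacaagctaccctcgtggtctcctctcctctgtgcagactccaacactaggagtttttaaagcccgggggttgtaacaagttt
Gpm6b, chrX:166238693-166238942, plus strand: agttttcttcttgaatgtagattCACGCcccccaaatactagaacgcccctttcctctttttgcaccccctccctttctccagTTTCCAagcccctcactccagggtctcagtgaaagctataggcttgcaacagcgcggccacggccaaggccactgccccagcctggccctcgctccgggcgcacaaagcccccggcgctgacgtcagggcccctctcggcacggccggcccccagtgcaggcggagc
In the Akr1c18 window the capitals mark a GC box (GGGCGG, here on the opposite strand) and a MAF half-site (TGCTGA). In the Spx window they mark another MAF half-site. In the Gpm6b window they mark an AHR-ARNT core (GCGTG) and an NFAT-type core (TGGAAA), both on the opposite strand.

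No motif was common to the 7 genes. The MAF half-site was in 3 of the 10 windows (of Akr1c18, Erg and Spx) and in 16.1% of all windows. The AHR-ARNT core was in 2 of the 10 (of Erg and Gpm6b) and in 28.2% of all windows, and the GC box was in 4 of the 10 and in 32.7% of all windows. The NFAT-type core was in 1 of the 10, against 18.6% of all windows, the GATA element AGATAA in 1 against 9.99%, and the TATA box TATAAA in 2 against 12.4%. The AP-1 element TGANTCA and the ETS site CCGGAAG were in 0 of the 10 windows, against 6.75% and 6.91% of all windows. These matches describe letters and no binding was measured.

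Each array gave log2 expression values for 41034 transcript clusters, between 3.07 and 13.92, with array medians of 4.92 to 5.05. Within groups, the arrays had a Pearson's r of 0.984 to 0.994 over clusters. Markers of CD4 T cells were high on all 8 arrays, with a mean log2 level of 11.07 to 11.46. Ccr2, the targeted gene, had log2 levels of 4.62 to 5.15 in CCR2-/- cells and 4.26 to 4.61 in wild-type cells, against a filter level of 4.53 to 4.63. Its signal was thus slightly higher in the knockout, where the highest value lay above the array medians, and since the deleted part is not given it does not check the genotype labels. Of the sample titles, 4 carry a replicate number 2, and the other 4 were taken as replicate 1.

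Akr1c18 showed the largest subset difference of the 7. Its log2 levels were 11.48 and 10.05 in CCR2-/- CD45RBlow cells, 10.18 and 10.29 in wild-type CD45RBlow cells, 7.09 and 6.55 in CCR2-/- CD45RBhigh cells and 7.39 and 6.92 in wild-type CD45RBhigh cells (replicate 1, then replicate 2). The lowest CD45RBlow array thus stood far above the highest CD45RBhigh array, and CCR2-/- CD45RBlow replicate 1 stood above the other 3 CD45RBlow arrays. The level averaged 10.50 ± 0.66 in CD45RBlow and 6.99 ± 0.35 in CD45RBhigh cells (SD, n = 4 each), an 11.4-fold difference that ranked 2 among the 13508 genes. In CD45RBlow cells this enzyme's probe set lay between the 92.9th and 98.1th percentile of all clusters on its array. In CD45RBhigh cells it still lay between the 67.0th and 73.7th percentile.

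Lrrk2, the other enzyme, differed 4.95-fold between subsets. Its log2 levels were 7.81 and 6.90 in CCR2-/- CD45RBlow cells, 8.27 and 7.96 in wild-type CD45RBlow cells, 4.91 and 5.17 in CCR2-/- CD45RBhigh cells and 5.82 and 5.82 in wild-type CD45RBhigh cells. The subsets did not overlap, and within each subset both CCR2-/- arrays lay below both wild-type arrays. The mean was 7.74 ± 0.59 in CD45RBlow and 5.43 ± 0.46 in CD45RBhigh cells (SD, n = 4 each).

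Erg, the transcription factor, differed 4.24-fold between subsets, with little spread in either. On the log2 scale its levels were 7.53 and 7.38 in CCR2-/- CD45RBlow cells, 7.81 and 7.48 in wild-type CD45RBlow cells, 5.08 and 5.52 in CCR2-/- CD45RBhigh cells and 5.53 and 5.73 in wild-type CD45RBhigh cells. The 4 CD45RBlow arrays spanned 0.43 and the 4 CD45RBhigh arrays 0.65 on the log2 scale, with a gap between them. The mean was 7.55 ± 0.18 in CD45RBlow and 5.46 ± 0.27 in CD45RBhigh cells (SD, n = 4 each).

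Gpr33, the receptor, was uneven in CD45RBhigh cells. Its log2 levels were 8.58 and 7.47 in CCR2-/- CD45RBlow cells, 8.18 and 8.05 in wild-type CD45RBlow cells, 4.63 and 5.21 in CCR2-/- CD45RBhigh cells and 5.34 and 6.67 in wild-type CD45RBhigh cells. Wild-type CD45RBhigh replicate 2 stood above the other 3 CD45RBhigh arrays and still below every CD45RBlow array, and the 4 CD45RBhigh arrays spanned 2.04. The mean was 8.07 ± 0.46 in CD45RBlow and 5.46 ± 0.86 in CD45RBhigh cells (SD, n = 4 each), a 6.10-fold difference. CCR2-/- CD45RBhigh replicate 1 lay at the 42.6th percentile of its array, close to the filter level.

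Spx, the secreted peptide, had low levels and the tightest ones. Spx levels on the log2 scale were 6.34 and 6.08 in CCR2-/- CD45RBlow cells, 6.23 and 6.15 in wild-type CD45RBlow cells, 4.81 and 4.74 in CCR2-/- CD45RBhigh cells and 4.79 and 5.08 in wild-type CD45RBhigh cells. The 4 CD45RBlow arrays lay within 0.26 of each other and the 4 CD45RBhigh arrays within 0.33, without overlap. The mean was 6.20 ± 0.11 in CD45RBlow and 4.85 ± 0.15 in CD45RBhigh cells (SD, n = 4 each), a 2.54-fold difference. In CD45RBhigh cells Spx lay between the 43.5th and 52.1th percentile of clusters, little above the filter level.

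Gpm6b, the proteolipid-family glycoprotein, differed 5.57-fold between subsets. The arrays gave log2 levels of 9.69 and 9.61 in CCR2-/- CD45RBlow cells, 9.45 and 9.19 in wild-type CD45RBlow cells, 6.67 and 6.58 in CCR2-/- CD45RBhigh cells and 8.07 and 6.71 in wild-type CD45RBhigh cells. Wild-type CD45RBhigh replicate 1 stood above the other 3 CD45RBhigh arrays, and no CD45RBhigh array reached the CD45RBlow range. The mean was 9.49 ± 0.22 in CD45RBlow and 7.01 ± 0.71 in CD45RBhigh cells (SD, n = 4 each).

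Srgap3, the GTPase-activating protein, was the one member whose subsets overlapped. Its log2 levels were 7.44 and 6.49 in CCR2-/- CD45RBlow cells, 7.53 and 6.34 in wild-type CD45RBlow cells, 6.32 and 4.85 in CCR2-/- CD45RBhigh cells and 6.53 and 4.93 in wild-type CD45RBhigh cells. Replicate 2 lay below replicate 1 in every group, and wild-type CD45RBhigh replicate 1 lay above both replicate 2 arrays of CD45RBlow cells. The mean was 6.95 ± 0.62 in CD45RBlow and 5.66 ± 0.89 in CD45RBhigh cells (SD, n = 4 each), a 2.45-fold difference that ranked 47 among the 13508 genes. By construction of the list, 6 of the 7 genes had all 4 CD45RBlow arrays above all 4 CD45RBhigh arrays, which held for 6.13% of the genes tested, and nothing is read from this count.

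**Figure D1:**
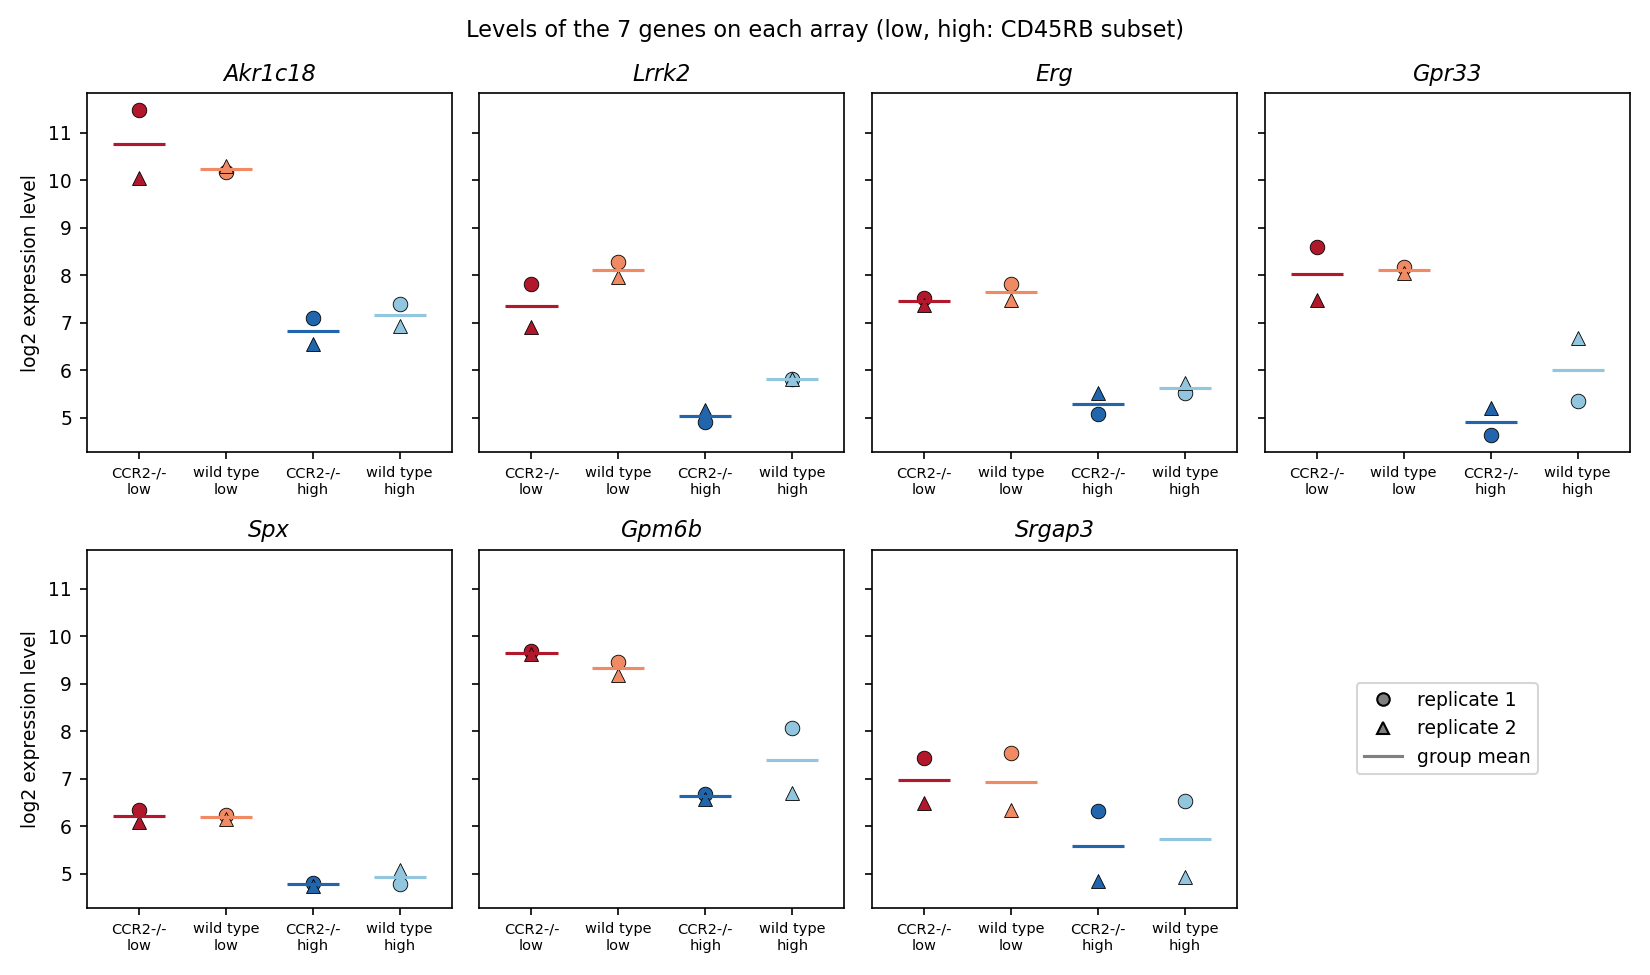
Log2 expression level (vertical axis, one scale for all panels) of each of the 7 genes on the 8 arrays, by group; circles are replicate 1, triangles replicate 2 and lines group means. The CD45RBlow arrays lie above the CD45RBhigh arrays for 6 genes, and for Srgap3 replicate 2 lies below replicate 1 in all 4 groups.

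The order of the 4 group means varied among the genes. In CD45RBhigh cells the CCR2-/- mean lay below the wild-type mean for all 7 genes. In CD45RBlow cells it lay above for Akr1c18, Gpm6b, Spx and Srgap3 and below for Lrrk2, Erg and Gpr33. These directions are not independent of a choice of genes within a genotype. They were not counted over all genes tested, and nothing is read from their number. Neighbouring means of 1 subset differed by less than the larger SD for some genes and by more for others. For Spx they were 6.21 ± 0.18 in CCR2-/- CD45RBlow and 6.19 ± 0.06 in wild-type CD45RBlow cells (SD, n = 2 each). For Akr1c18 they were 10.77 ± 1.01 in CCR2-/- CD45RBlow and 10.24 ± 0.08 in wild-type CD45RBlow cells (SD, n = 2 each). The gap exceeded both SDs for Lrrk2, at 7.36 ± 0.64 in CCR2-/- CD45RBlow and 8.12 ± 0.22 in wild-type CD45RBlow cells (SD, n = 2 each).

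Set pair by pair, with arrays of one genotype and one replicate number compared, the subset difference was positive in all 4 pairs for each gene. The genes were chosen for a difference in this direction, so nothing is read from the sign. The size of the subset difference varied most for Gpr33, at 3.96 and 2.26 on the log2 scale in CCR2-/- replicates 1 and 2. In wild-type replicates 1 and 2 it was 2.84 and 1.38 for Gpr33. For Gpm6b it was 3.02 and 3.03 in CCR2-/- replicates 1 and 2 and 1.38 and 2.48 in wild-type replicates 1 and 2. For Akr1c18 it was 4.39 and 3.50 in CCR2-/- replicates 1 and 2 and 2.79 and 3.37 in wild-type replicates 1 and 2. The difference was larger in replicate 1 than in replicate 2 of both genotypes for 4 genes, Lrrk2, Erg, Gpr33 and Spx. It was larger in replicate 2 of both genotypes for 2 genes, Gpm6b, by little in CCR2-/- cells, and Srgap3. For Srgap3 it was 1.64 in replicate 2 against 1.12 in replicate 1 of CCR2-/- cells and 1.41 against 1.01 in wild-type cells. These contrasts of replicates were not tested or counted over all genes, and nothing is read from the counts.

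**Figure D2:**
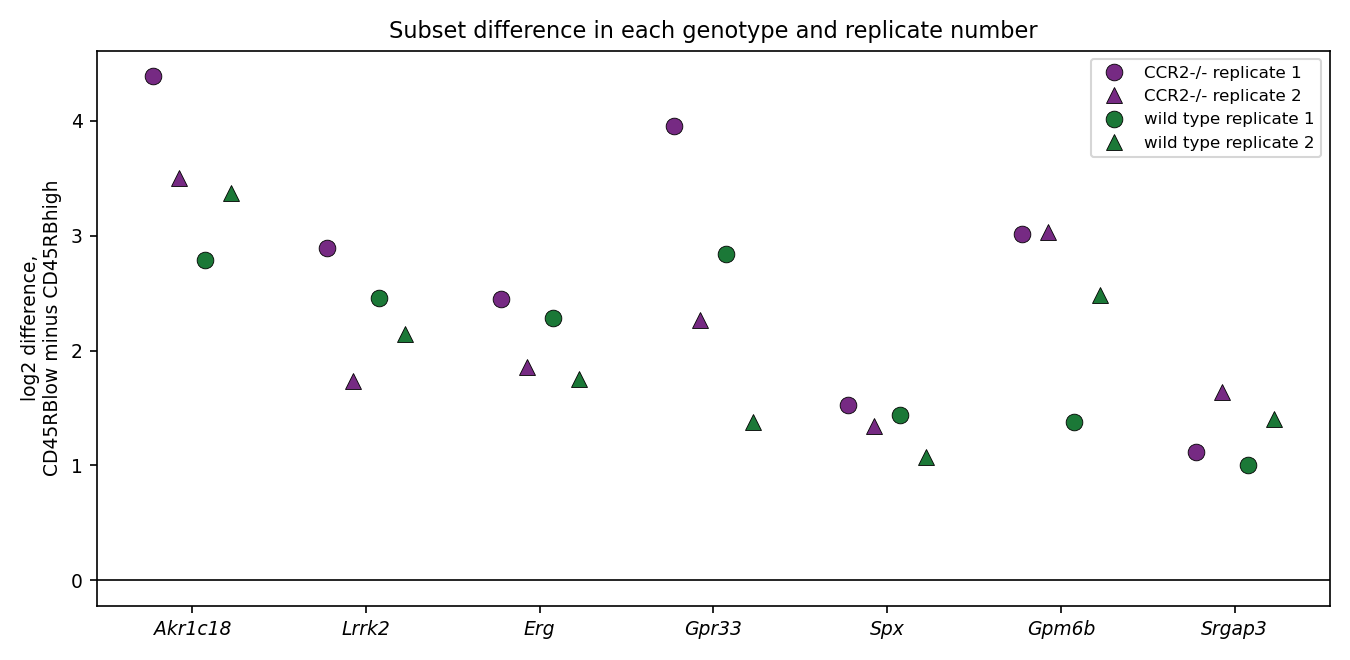
Log2 difference of CD45RBlow minus CD45RBhigh cells (vertical axis) for each gene in each genotype and replicate number, 1 point a pair of arrays. All points lie above 0, the direction for which the genes were chosen, and the points of Gpr33 spread most, between 1.38 and 3.96.

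Whether loss of CCR2 was accompanied by another level of the 7 genes was tested with limma over all 8 arrays. Averaged over both subsets, this genotype contrast is independent of the subset difference that chose the genes. None of the 7 passed at an adjusted p of 0.05, as was true of all genes tested (0 of 13508, 0%). At an unadjusted p under 0.05 there were 521 genes, 1 of the 7 among them. The median genotype difference of the 7 was -0.21 on the log2 scale, beside 0.02 over all genes tested.

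Lrrk2 had the lowest unadjusted p of the 7. It was lower in CCR2-/- cells by -0.77 on the log2 scale (95% interval -1.22 to -0.31, 1.70-fold lower; limma adjusted p = 0.940), and the adjusted p was 0.693 with the replicate number as a block. CCR2-/- values lay below wild-type values in 4 of 4 same-numbered pairs, with differences of -0.47, -1.06, -0.90 and -0.64, and Lrrk2 ranked 13496 of 13508 by signed difference. Of the 7 genes, Lrrk2 and Erg were lower in 4 of 4 pairs, which 6.35% of the genes tested also were. Lrrk2 alone also had both CCR2-/- arrays below both wild-type arrays in each subset, as 1.97% of the genes tested did.

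The other 6 genes had intervals that included 0. The difference was -0.59 for Gpr33 (95% interval -1.39 to 0.22), -0.26 for Erg (-0.56 to 0.04) and -0.21 for Gpm6b (-0.84 to 0.41). It was 0.10 for Akr1c18 (-0.61 to 0.81), -0.06 for Spx (-0.30 to 0.17) and -0.06 for Srgap3 (-1.21 to 1.10), all with limma adjusted p between 0.940 and 0.995. With 1 array left out the difference ran from -0.92 to -0.25 for Gpr33 and from -0.37 to -0.15 for Erg. The 95% intervals are from the fit without a replicate term, so they also carry each gene's difference between replicate numbers. As they stand, those of Srgap3 and Akr1c18 leave room for changes beyond 1.5-fold in either direction, while that of Spx does not. The replicate contrast, fitted with the term, had a standard error of 0.12 for Srgap3 and 0.22 for Akr1c18. The averaged genotype contrast without the term had 0.49 and 0.30. With the term that room can be narrower, and those intervals are not given here. Compared within same-numbered pairs, Srgap3 differed by -0.10 and 0.16 in CD45RBlow cells and by -0.21 and -0.08 in CD45RBhigh cells.

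Within 1 subset, the genotype effect is independent of the subset difference averaged over genotypes but not of that within a genotype, and earlier results had named some of these genes within a genotype. In CD45RBlow cells 0 of the 7 passed (0% of all genes, limma, 298 genes and 1 of the 7 at an unadjusted p under 0.05), with Lrrk2 at -0.76 and Akr1c18 at 0.53 on the log2 scale. Leaving out 1 array moved these to between -1.21 and -0.31 for Lrrk2 and to between -0.19 and 1.24 for Akr1c18. In CD45RBhigh cells 0 of the 7 passed (0% of all genes, 354 genes and 1 of the 7 at an unadjusted p under 0.05), with Gpr33 at -1.09, Lrrk2 at -0.77 and Gpm6b at -0.76. Leaving out 1 array moved these to between -1.75 and -0.42 for Gpr33 and to between -1.44 and -0.079 for Gpm6b. The subset difference in CCR2-/- minus that in wild-type cells passed for 0 of the 7 and for 0% of all genes (limma, 160 genes and 0 of the 7 at an unadjusted p under 0.05). Its largest values were 1.09 for Gpm6b (95% interval -0.15 to 2.34), 1.002 for Gpr33 (-0.61 to 2.61) and 0.87 for Akr1c18 (-0.55 to 2.29), each with a limma adjusted p of 0.9998. With 1 array left out these ran from 0.41 to 1.78 for Gpm6b, 0.34 to 1.67 for Gpr33 and 0.15 to 1.58 for Akr1c18.

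By replicate number, Srgap3 fell and no other member passed. The contrast of replicate 2 minus replicate 1 is independent of the rule that chose the genes, and 1 of the 7 passed, against 0.0666% of all genes tested (9 of 13508, 0.0296% lower in replicate 2). At an unadjusted p under 0.05 there were 2194 genes and 2 of the 7. Srgap3 was lower in replicate 2 by -1.30 on the log2 scale (95% interval -1.58 to -1.02, limma adjusted p = 0.0255), the largest decrease of all 13508 genes. Replicate 2 was below replicate 1 in 4 of 4 groups, by -0.94 in CCR2-/- CD45RBlow, -1.20 in wild-type CD45RBlow, -1.46 in CCR2-/- CD45RBhigh and -1.60 in wild-type CD45RBhigh cells. The call was lost when any 1 of the 8 arrays was left out, with an adjusted p of 0.0606 to 0.169. Srgap3 and Gpm6b were lower in replicate 2 in all 4 groups, as 9.19% of the genes tested were.

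The other members differed less by replicate number. Akr1c18 was at -0.58 (limma adjusted p = 0.281), Gpm6b at -0.45 (0.344), Lrrk2 at -0.24 (0.514), Gpr33 at 0.17 (0.831), Erg at 0.04 (0.897) and Spx at -0.03 (0.903). The sex-linked transcripts differed between the replicate numbers as well. Xist, the RNA of the inactive X chromosome, had log2 levels of 11.74 to 12.07 on replicate 2 arrays and 4.45 to 5.02 on replicate 1 arrays. Kdm5d, a Y-linked demethylase gene, had levels of 7.58 to 7.78 on replicate 2 arrays and 8.83 to 9.13 on replicate 1 arrays. Of the 4 tested sex-linked genes Xist rose and Kdm5d, Eif2s3y and Uty fell in replicate 2 (limma). The Y-linked signal did not vanish there: Eif2s3y was at 8.47 to 9.11 and Uty at 8.19 to 8.59 on replicate 2 arrays. Replicate 2 arrays thus held Xist and Y-linked transcripts together, all far above the filter level of 4.53 to 4.63. Whether those samples pooled male and female mice was not tested. Replicate number and the sex-linked transcripts cannot be told apart, and their part in the Srgap3 difference was not tested.

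**Figure D3:**
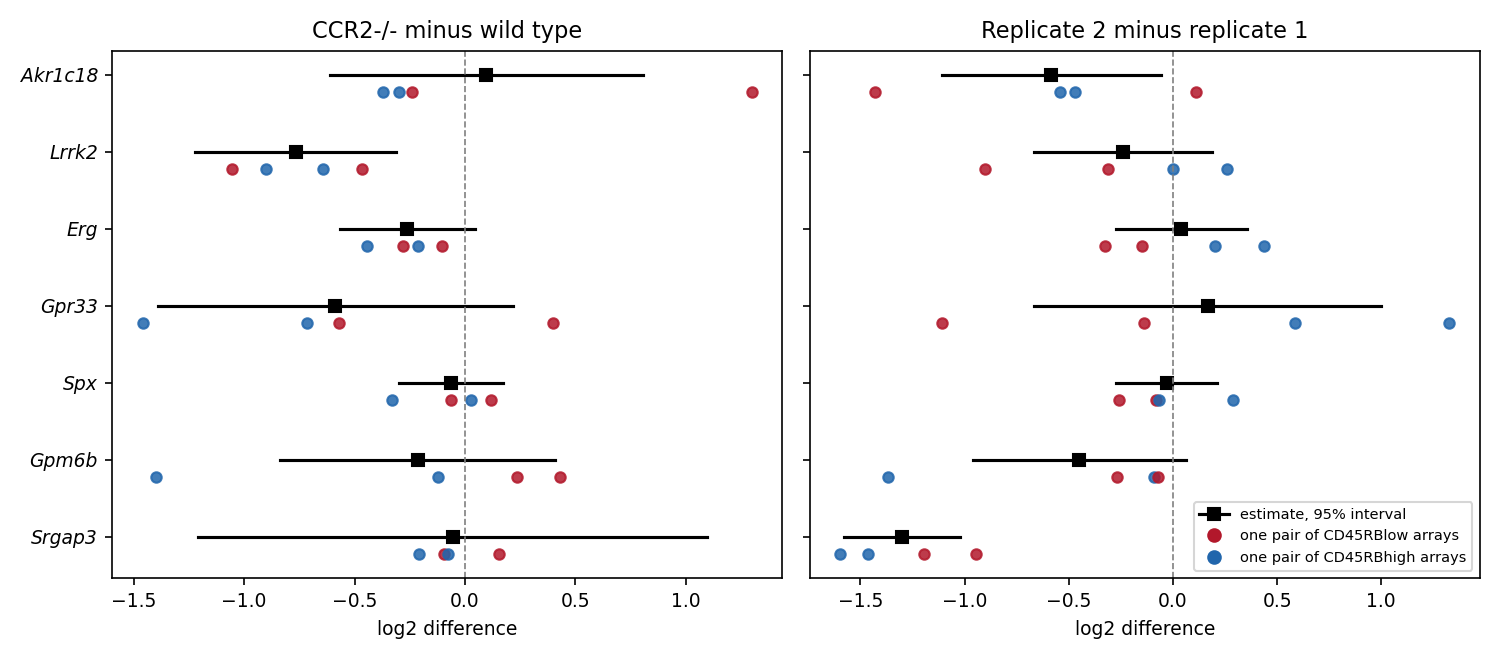
Log2 differences (horizontal axes) of CCR2-/- minus wild-type cells averaged over subsets (left) and of replicate 2 minus replicate 1 (right); squares with lines are limma estimates with 95% intervals and points are single pairs of arrays, coloured by subset. Lrrk2 lies below 0 in all 4 genotype pairs, and Srgap3 lies at -0.94 or lower in all 4 replicate pairs.

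The genes related to each member by family or pathway were then set beside it, in 7 lists. Over all genes tested, 3.03% passed the subset test (limma adjusted p under 0.05, 1.1% higher and 1.93% lower in CD45RBlow), and the median subset difference was -0.01 on the log2 scale. Of the 58 related genes tested, 2 passed, Cyp11a1 and Ppm1h, neither in every alternative setting. With the replicate number as a block 758 of the 13508 genes passed in place of 409, and of the related genes again Cyp11a1 and Ppm1h. By genotype, averaged over subsets, 0 of the 58 passed (limma, 0 at an unadjusted p under 0.05), and by replicate number 0 passed (6 at an unadjusted p under 0.05).

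Among the AKR1C enzymes and genes of steroid synthesis, 1 of 9 tested rose, with a list median of -0.06. It was Cyp11a1, the mitochondrial enzyme that makes pregnenolone from cholesterol. Cyp11a1 had log2 levels of 6.09 and 6.02 in CCR2-/- CD45RBlow cells, 5.55 and 5.80 in wild-type CD45RBlow cells, 4.68 and 4.83 in CCR2-/- CD45RBhigh cells and 5.31 and 4.77 in wild-type CD45RBhigh cells, with no overlap between subsets. Its subset difference was 0.97 (95% interval 0.66 to 1.28, limma adjusted p = 0.0175). Leaving out replicate 1 of CCR2-/- CD45RBlow cells (adjusted p = 0.0804) ended the call, as did leaving out replicate 1 (0.0761) or replicate 2 (0.0634) of wild-type CD45RBlow cells. Hsd3b1 and Hsd3b6, which encode the enzymes that turn pregnenolone into progesterone in steroid-making tissues, lay at no more than the 9.47th and 10.4th percentile of clusters on any array and were not tested.

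Among the genes of the LRRK2 pathway, all 21 with a probe set were tested, with a list median of 0.01. Ppm1h, a phosphatase that removes the phosphate LRRK2 places on Rab proteins, fell by 0.38 on the log2 scale in CD45RBlow cells (limma adjusted p = 0.0466). The call was lost in 12 of 16 alternative settings, up to an adjusted p of 0.229, and in each of the 8 that left out 1 array. Lrrk1, the paralogue of Lrrk2, had levels of 4.47 to 4.77, near the filter level.

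Of the 16 tested ETS factors other than Erg, 0 passed (limma, 2 at an unadjusted p under 0.05), and the list median was 0.07. Fli1, the closest relative of Erg, was at 10.3 to 10.6 on all arrays with a subset difference of 0.16 (limma adjusted p = 0.364). Etv4 at -0.34 (0.181) and Elk4 at 0.21 (0.211) had the smallest p in the list. Of the 9 tested genes of the SLIT-ROBO list 0 passed (1 at an unadjusted p under 0.05), with a median of -0.04. Rac2 was at -0.25 (limma adjusted p = 0.243), Arhgap4 at -0.38 (0.316) and the paralogue Srgap2 at -0.10, while Srgap1 was not tested.

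For the remaining lists 1 gene each passed the filter on low values. Plp2, of the proteolipid list, had a subset difference of 0.21 (limma adjusted p = 0.199), and Gpm6a, the paralogue of Gpm6b, had levels of 4.13 to 4.41 and was not tested. Fpr2, of the chemoattractant receptors, was at -0.21 (adjusted p = 0.657). Of the spexin and galanin list Kiss1r was at 0.01 (adjusted p = 0.984), and Galr2, a receptor for spexin, had levels of 3.83 to 3.96. The signals of Gpm6a and Galr2 were thus under the filter level of the arrays.

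**Figure D4:**
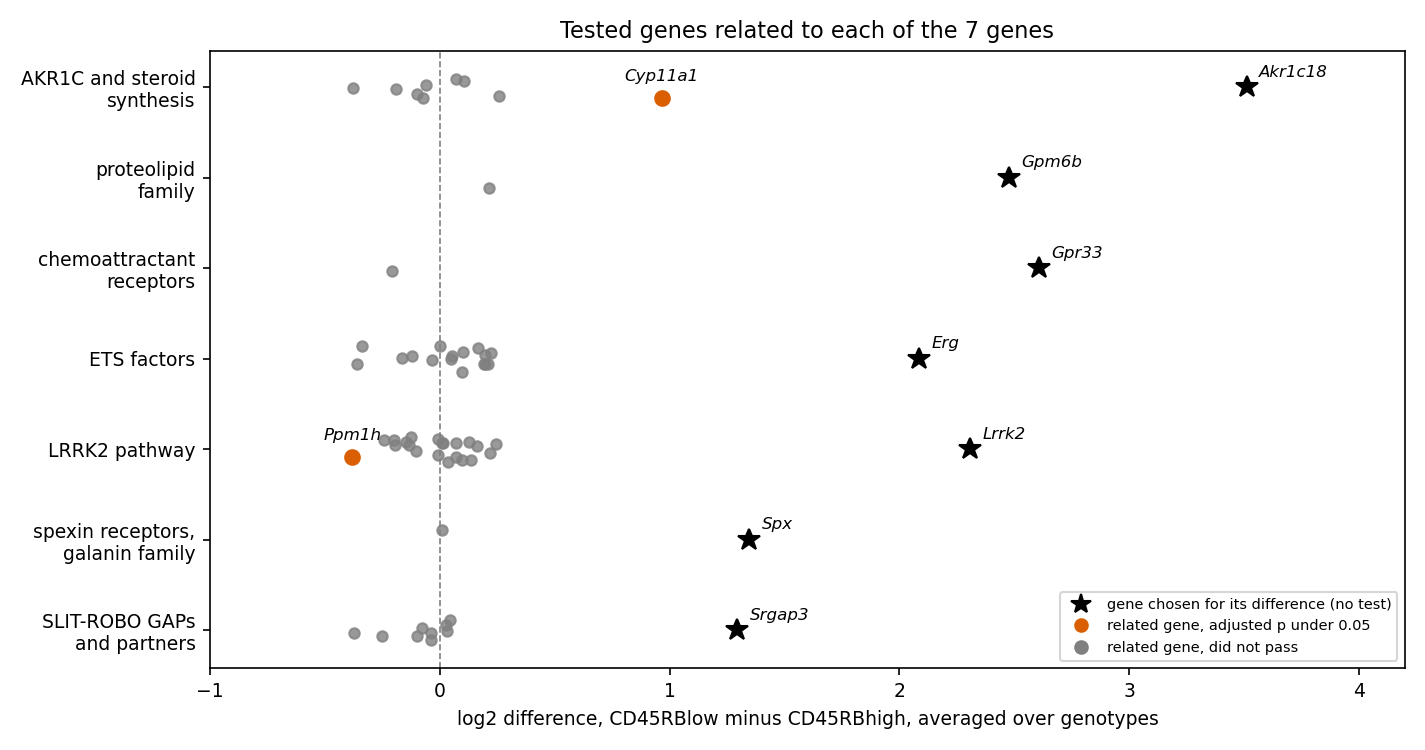
Log2 subset difference of CD45RBlow minus CD45RBhigh cells, averaged over genotypes (horizontal axis), for the tested genes of each list (points) and for the member it belongs to (star, no test). Cyp11a1 at 0.97 and Ppm1h at -0.38 are the related genes that passed, and the stars lie between 1.29 and 3.51.

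Markers of other cells were compared over the subsets as well, since a bulk sample does not tell fewer cells of a type from less RNA per cell. Some regulatory T cell markers moved with the members: 4 of 8 rose in CD45RBlow cells (limma), with a mean log2 level of the list of 8.13 to 8.79 in CD45RBlow and 7.31 to 7.54 in CD45RBhigh cells. Foxp3, the defining factor of these cells, differed by 3.05 (adjusted p = 0.0063) and Ikzf2 by 2.49, and both passed in all 16 alternative settings. Ctla4 at 1.13 and Gpr83 at 1.23 passed in 7 and 9 of 16. The other 4 did not pass, among them those with the highest levels, Il2ra, which encodes CD25, at 0.10 (adjusted p = 0.591) and Tnfrsf18 at -0.16 (0.291), with Itgae at 0.28 (0.317) and Nrp1 at 0.42 (0.236). The sort for CD25- cells came before activation. Bulk values do not show whether these transcripts were in regulatory T cells or in other activated T cells. The share of the members' difference that lies in regulatory T cells was not tested.

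Endothelial markers, relevant for Erg, gave a mean level of 4.84 to 4.90 in CD45RBlow and 4.79 to 4.89 in CD45RBhigh cells. Of 12 such genes 9 were under the filter on low values, with Cdh5, a defining marker, at 3.87 to 4.28. Eng and Pecam1 stood far above the list mean, at log2 levels of 7.61 to 8.54 and 7.53 to 8.33. Eng rose in CD45RBlow cells by 0.64 on the log2 scale (limma adjusted p = 0.0263). That call was lost when any 1 of 5 arrays was left out, wild-type CD45RBhigh replicate 1 (0.0621), wild-type CD45RBlow replicate 1 (0.111), CCR2-/- CD45RBlow replicate 1 (0.0845), wild-type CD45RBhigh replicate 2 (0.0933) and wild-type CD45RBlow replicate 2 (0.0915). Pecam1 was at -0.46 (adjusted p = 0.0502, and 0.0319 with the replicate block).

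The lists of other cells lay at low levels or at higher levels in CD45RBhigh cells. The mean level of B cell markers was 4.19 to 4.29 in CD45RBlow and 4.28 to 5.11 in CD45RBhigh cells, with 0 of 4 tested passing (limma, 2 at an unadjusted p under 0.05) and Cd79b, the highest, at -0.81 (adjusted p = 0.286). For macrophages it was 4.47 to 4.59 in CD45RBlow and 4.49 to 4.80 in CD45RBhigh cells, with 0 of 1 passing (0 at an unadjusted p under 0.05). For CD8 T cells it was 5.80 to 5.93 in CD45RBlow and 6.16 to 6.84 in CD45RBhigh cells, with 0 of 2 passing (1 at an unadjusted p under 0.05). With the replicate block Cd68 (limma adjusted p = 0.0244) and Cd8b1 (0.0467) were lower in CD45RBlow cells. Cd68 and Cd8b1 stood above their list means, at log2 levels of 6.88 to 8.55 and 6.97 to 8.78. The lists of dendritic cells, NK cells, neutrophils, mast cells and platelets had mean levels of at most 5.18 on every array. Of the 7 CD4 T cell markers, Cd3e and Cd5, the highest, differed by 0.13 (limma adjusted p = 0.530) and -0.00088 (0.998), and 1 passed. Trat1 fell in CD45RBlow cells, with a difference of -1.92 on the log2 scale (limma adjusted p = 0.0150). Leaving out replicate 1 of CCR2-/- CD45RBlow cells (0.0765) or of wild-type CD45RBlow cells (0.0800) ended that call.

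The genes with profiles most like each member were found by the root mean square difference of centred log2 levels over the 8 arrays, so that 0 means the same profile. Gpm6b was nearest to Ahr, the dioxin receptor, at 0.23, and then to Il24 and Tnfrsf8 at 0.32 each. Spx was nearest to the chemokine receptor gene Ccr4 at 0.19, Neto2 at 0.20 and Crybg3 at 0.21. Erg was nearest to Prdm1, which encodes the repressor BLIMP1, at 0.28, then to Dgkk at 0.31 and Ttc39c at 0.32.

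Lrrk2 was nearest to Emp1 at 0.32, then to Plcd1 and the decoy receptor gene Il1r2 at 0.34 each. Gpr33 was nearest to Edn1 at 0.43, Dgkk at 0.48 and the cytokine gene Il13 at 0.49. Akr1c18, with the largest difference, had its nearest neighbours farther off, Foxp3 at 0.50 and Itgb8 and Ahr at 0.56 each. Srgap3 was nearest to Ctla2a at 0.41, Socs2 at 0.42 and Rbpj at 0.45. All these profiles share the step between subsets, so the measure mostly reads its size.

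The members were also compared among themselves. Lrrk2 and Erg were the nearest pair at 0.34, followed by Erg and Spx at 0.41. Akr1c18 and Srgap3 were the farthest at 1.23, followed by Gpr33 and Srgap3 at 1.19. The median distance to the other members was lowest for Erg at 0.52 and highest for Akr1c18 and Srgap3 at 0.85.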

How the data were processed

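Total RNA (200 ng) from each sample was labelled and measured on Affymetrix whole-transcript arrays, per the labels' protocols. The authors deposited log2 values per transcript cluster, which the submitters' processing notes credit to RMA and Partek. No versions, background setting or probe filter are given in the sources used here. Clusters were named through the platform annotation: of 41034, 23521 had 1 gene symbol, 1814 several and 15699 none here. The brightest single-symbol cluster stood for each of 22180 genes, and each of the 7 members had 1 cluster.

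A gene was tested if it reached its array's 40th percentile on at least 2 of the 8 arrays. A limma model (limma 3.58.1, R 4.3.3) of 4 group means, plus a replicate term for the replicate contrast, was fitted to all arrays. P-values were two-sided with Benjamini-Hochberg adjustment over 13508 genes and a threshold of 0.05. The fit was tested on simulated data. The members and lists were chosen with earlier results of these data known. Named were all members; related genes that passed the subset or the averaged genotype test, or else the 2 with the smallest p; up to 2 markers per list with the highest level; and the 3 nearest profiles per member. The other related genes and markers named (Lrrk1, Fli1, Srgap1, Srgap2, Gpm6a, Galr2, Hsd3b1, Hsd3b6, Cdh5, Itgae, Nrp1 and those that passed among markers) were chosen after their values were seen. Samples of the same replicate number deviated together, with 6 correlations of 0.11 to 0.53, all over 0.1, so the numbers were taken to pair samples. The main subset and genotype fits left this pairing out, and the replicate block is the alternative that used it. Alternatives were the replicate block, no filter or one at the 60th percentile, the mean of clusters, centring, quantile normalization, trended robust variances, array weights and each array left out. Precision is limited by the 2 arrays per group. The median standard error was 0.10 for an averaged contrast and 0.21 for the difference of differences. The erythroid list had no named gene.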

Additional observations from a re-analysis of the deposited data

Results flagged for a closer look

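For Gpm6b the CCR2-/- minus wild-type difference ran in opposite directions in the subsets. It averaged 0.33 on the log2 scale in CD45RBlow cells, with 0.23 and 0.43 in its pairs of arrays. In CD45RBhigh cells it averaged -0.76, with -1.40 and -0.12 in its pairs. The difference between the subsets was 1.09 (95% interval -0.15 to 2.34) and did not pass the limma test (adjusted p = 0.9998). With groups of 2 arrays, no search for outlying samples was made.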

How the results depend on the processing

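The subset test called 758 genes with the replicate block and 409 without it. The block changed no call of a member in the genotype contrasts, and the adjusted p of Lrrk2 by genotype was then 0.693. Over the settings that leave out 1 array, the subset test called 39 to 524 genes, the replicate contrast called 1 to 4 genes against 9 with all arrays, and 0 of the 7 members against 1. The call of Srgap3 held in the 7 other settings (adjusted p = 0.0063 to 0.0302). The genotype differences of Lrrk2, Erg and Gpr33 averaged over subsets kept their direction in all 16 settings, with sizes of -0.99 to -0.54, -0.37 to -0.15 and -0.92 to -0.25. These ranges over left-out arrays crossed 0: averaged genotype difference of Akr1c18 -0.26 to 0.45, Spx -0.14 to 0.0098, Gpm6b -0.56 to 0.13 and Srgap3 -0.46 to 0.34; genotype difference in CD45RBlow of Akr1c18 -0.19 to 1.24, Gpr33 -0.64 to 0.47, Spx -0.10 to 0.16 and Srgap3 -0.57 to 0.63, and in CD45RBhigh of Srgap3 -0.94 to 0.66. The difference of subset differences ranged from -0.44 to 0.46 for Lrrk2, -0.082 to 0.35 for Erg and -0.63 to 0.97 for Srgap3. The replicate difference ranged from -0.091 to 0.16 for Erg, -0.22 to 0.59 for Gpr33 and -0.14 to 0.047 for Spx. Values near 0 also changed sign with centring (in CD45RBlow Spx -0.027 and Srgap3 -0.024, by replicate Erg -0.0085), with quantile normalization (in CD45RBlow Spx -0.030 and Srgap3 -0.016) and with array weights (by replicate Spx 0.018). None of these members' differences passed the test in any setting, and the cause was not tested. With 2 arrays per group, single arrays decide calls, and levels near the filter are limited by signal over background.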
